A study of Rattus norvegicus with 9 samples.

Results

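Solute carriers (Slc genes) were examined in rat proximal colon as the probe sets whose only gene symbol in the array annotation was that of a member of the Slc families. The glucose and fructose carriers Slc2a1, Slc2a2, Slc2a5 and Slc5a1, and Slc9a3, Slc11a2 and Slc22a5, were left aside by name, which took out 12 probe sets of 7 genes. This left 169 probe sets of 113 genes. A diet mean of 100 or more in any diet was then required, and 107 probe sets of 83 genes met it. They stood among 8799 probe sets on the array, of which 5606 were compared between diets, and among 3391 genes with a symbol of their own in that comparison. The kept probe sets closest to this minimum were those of Slc7a3 at 100.9 and Slc6a5 at 101.7 in their brightest diet, and the closest below it were another probe set of Slc7a1 at 98.53 and that of Slc15a2 at 96.83. The 62 probe sets under the minimum included every one of 30 genes, among them the peptide carriers Slc15a1 and Slc15a2, the vesicular monoamine carriers Slc18a1 and Slc18a2 and the sulfate carrier Slc26a2.

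Solute carriers are membrane proteins that move ions, nutrients and metabolites by exchange, by cotransport along an ion gradient or by facilitated passage. In colonic epithelial cells, carriers of the luminal membrane take up sodium, short-chain fatty acids and vitamins, and those of the opposite membrane pass them to the blood or load chloride for secretion. Other families sit in mitochondria, the endoplasmic reticulum, the Golgi apparatus or synaptic vesicles, so that a segment of whole bowel wall reports carriers of epithelium, muscle and nerve together.

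Male Sprague-Dawley rats received 1 of 3 isocaloric diets through their mothers and then for life, with whey protein hydrolysate (WPH), isolated soy protein (SPI) or casein (CAS) as the protein source. All were given the colon carcinogen azoxymethane from 90 days of age, in 2 weekly injections of 15 mg/kg, and tissue free of tumor was taken from the proximal colon 40 weeks later. Each diet was represented by pooled RNA of 7 rats, and 3 cRNA targets made in parallel from that pool were hybridized to 3 Affymetrix RG_U34A arrays. CAS, the dietary control, shared the carcinogen with the other groups. Arrays of a diet therefore repeat the measurement of 1 pool: their spread is technical, and each p-value compares RNA pools rather than populations of rats.

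Values are MAS 5.0 signals on a linear scale, and a signal of one probe set is not compared with that of another. A probe set was called higher or lower where limma gave an adjusted p under 0.05 over all 5606 probe sets. Folds are ratios of mean signals. Where all 3 arrays of a diet were under 100, the fold is a bound, with signals under 100 raised to 100. The same number of arrays, 3, stands behind every mean, and that number limits its precision.

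Each array has a time stamp, headed Hybridize Date, in the instrument's settings. A gap of over 30 minutes between stamps was taken to start a new round. This gave 3 rounds, which are inferred rather than recorded. They are called wash rounds here as a label only, since the heading names no wash step. The first round held the 3 CAS arrays and WPH replicate 2, the second SPI replicates 1 and 2 with WPH replicates 1 and 3, and the third SPI replicate 3 alone. CAS and SPI shared no round, so that their difference cannot be told apart from the rounds except through WPH. The fit was therefore repeated with the wash round as a block. Its adjusted p is given where it ended a call of a carrier described array by array in WPH against CAS, and where it ended a call between SPI and WPH that is given with its adjusted p. For SPI against CAS it is given with the call of each carrier in the passage on its class, whether kept or ended. The calls that it ended are counted for each comparison further on.

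Composition markers moved strongly with diet, and their values belong beside every carrier below. Summed signals of 14 measured colon epithelium markers ranged from 76074 to 81803 on CAS arrays, from 48896 to 51538 on SPI arrays and from 22823 to 24693 on WPH arrays. WPH lay below CAS in all 14 and SPI in 9 by the same test. The goblet cell mucin Muc2 was among the list, and none of its 14 genes had a mean under 100. Summed signals of 6 smooth muscle markers ranged from 81342 to 84496 with CAS, from 118934 to 120680 with SPI and from 158601 to 179274 with WPH, and all 6 were higher with both diets. Neuronal markers summed to between 4898 and 5432 with CAS, between 6696 and 7778 with SPI and between 11115 and 11954 with WPH. Of 8 neuronal genes compared, 7 were higher with WPH and 1, the granin Chgb, was lower. Syt1 of the same list was under 100 on all 9 arrays. Fibroblast and fat cell sums were 1.75 and 2.20 times the CAS mean with WPH. The ratio of 3′ to 5′ β-actin signals was 1.83 to 1.88 with CAS, 2.14 to 2.36 with SPI and 2.53 to 3.50 with WPH. The part of tissue composition and of this ratio in the carrier results was not tested. In pooled bulk tissue, fewer cells of a type and less RNA per cell cannot be told apart.

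**Figure D1:**
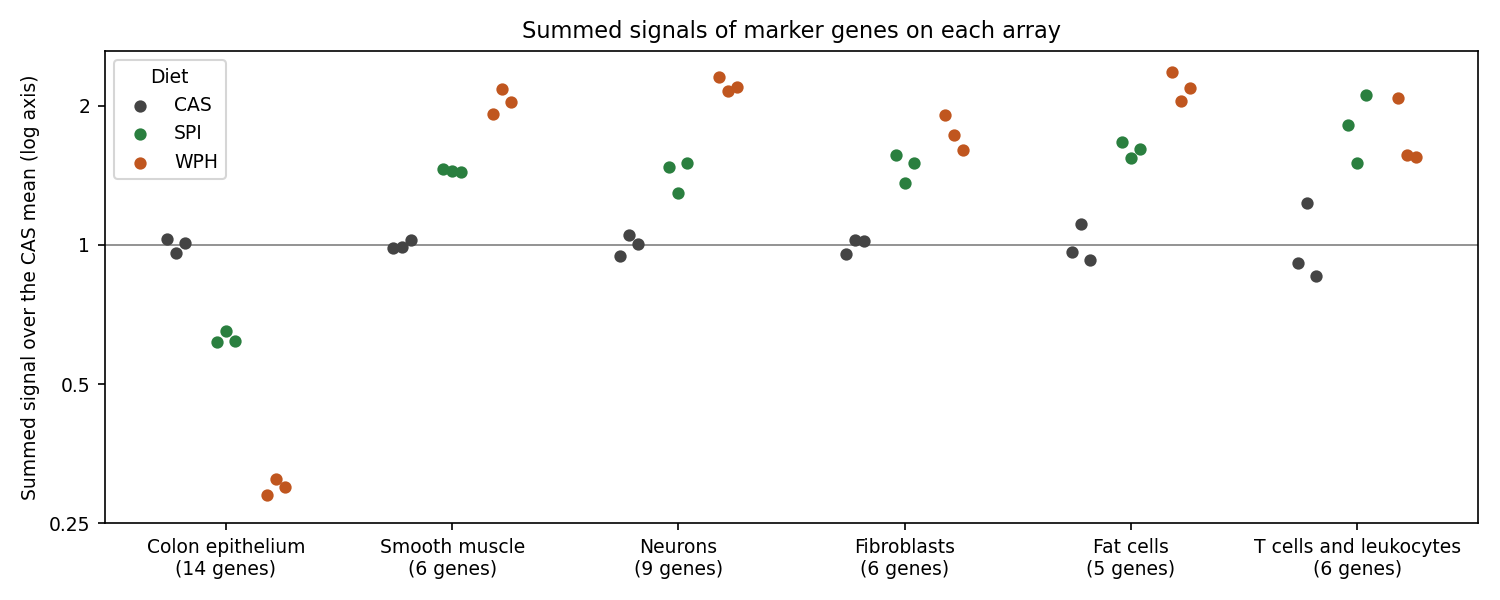
Summed MAS 5.0 signals of marker genes on each array, divided by the mean of the 3 CAS arrays, on a log axis; each point is 1 array of the CAS, SPI or WPH diet. Epithelial sums lie lowest with WPH, at 0.299 of the CAS mean, and smooth muscle and neuronal sums lie highest with WPH, at 2.04 and 2.22 times the CAS mean.

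More carriers were lower than higher with WPH. Of 107 probe sets, 31 were lower (29%), against 17.9% of all probe sets compared, and 12 were higher (11.2%), against 20.9%. The median log2 change was -0.16 for the carriers and 0.06 for all probe sets. Counted as genes, each by its brightest probe set, 25 of 83 were lower and 9 higher. By substrate, lower genes made up 3 of 4 carriers of the endoplasmic reticulum and Golgi apparatus, 6 of 16 of inorganic ions (37.5%) and 3 of 9 of carboxylates (33.3%). Higher genes made up 3 of 16 of inorganic ions (18.8%) and 2 of 12 of the Slc25 family (16.7%), which is below the 20.9% of all probe sets. The classes are small, so that their counts are descriptions. By the order of the diet means, 31 of 83 genes ran WPH below SPI below CAS, and 21 of these were among the genes called between WPH and CAS. Another 18 genes ran CAS below SPI below WPH, of which 9 were called. The share of all compared genes in these orders was not counted, so these counts describe the carriers alone. The epithelial and the smooth muscle marker sums ran in these same orders.

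**Figure D2:**
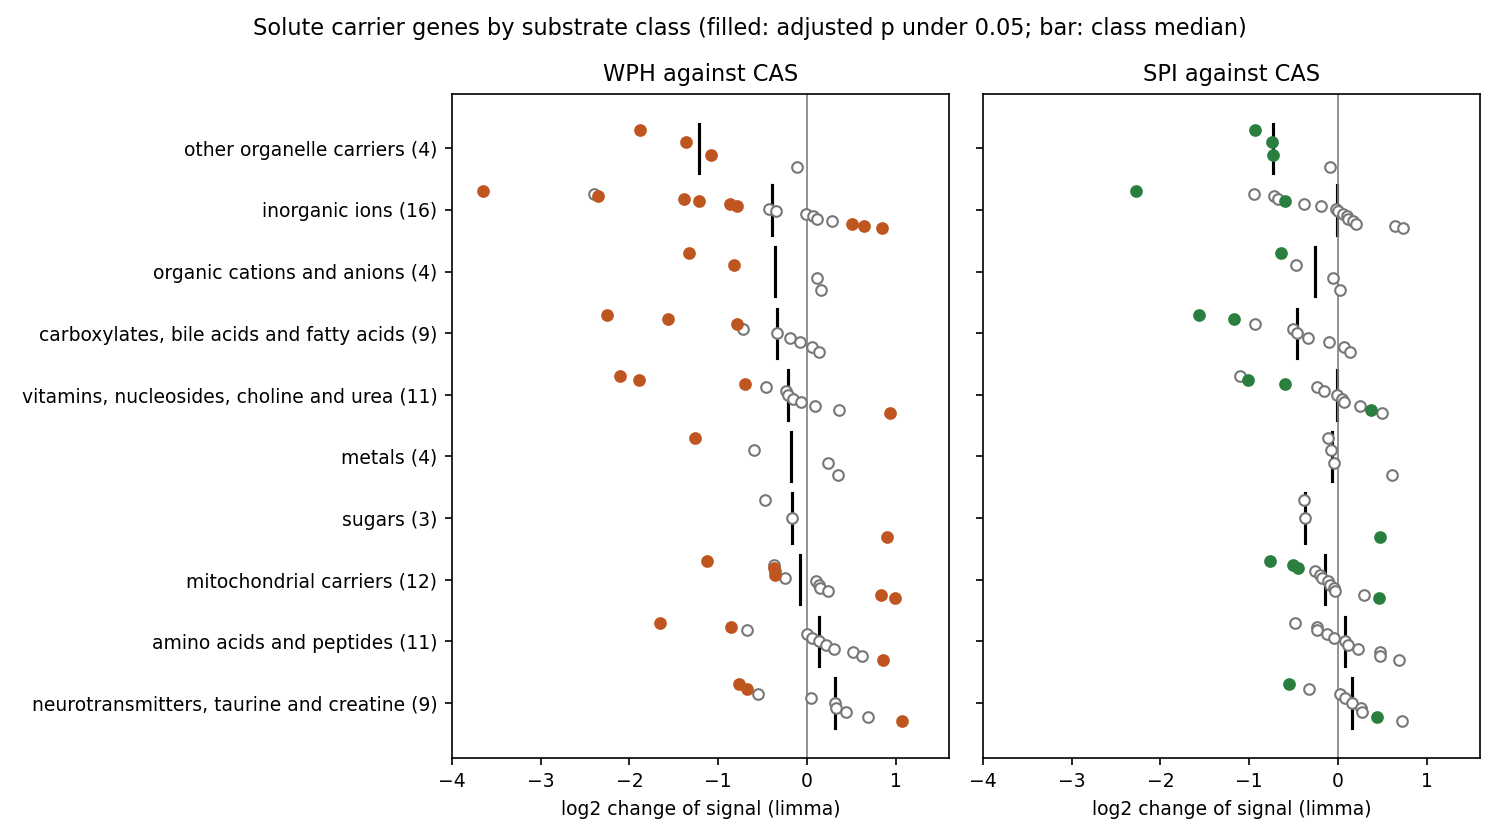
Log2 change of signal (limma) of each of the 83 carrier genes, with the number of genes in brackets, for WPH against CAS (left) and SPI against CAS (right). Filled points have an adjusted p under 0.05 and vertical bars are class medians: the organelle carriers have the lowest median in both panels, at -1.22 with WPH and -0.73 with SPI.

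Promoters are shown for 5 carriers, the lowered Slc13a2, Slc44a4 and Slc37a1 and the raised Slc18a3 and Slc25a4, chosen with their values known, so that the sequence before the start can be compared between genes that moved opposite ways. Each is the 250 bases before the gene start in RefSeq build GRCr8, on the gene's strand: Slc13a2 at chr10:63817185-63817434 (minus), Slc44a4 at chr20:3923855-3924104 (minus), Slc37a1 at chr20:9379932-9380181 (plus), Slc18a3 at chr16:7722815-7723064 (minus) and Slc25a4 at chr16:52805271-52805520 (plus). Capitals mark GC boxes (GGGCGG) and CCAAT boxes (CCAAT) on either strand.
Slc13a2: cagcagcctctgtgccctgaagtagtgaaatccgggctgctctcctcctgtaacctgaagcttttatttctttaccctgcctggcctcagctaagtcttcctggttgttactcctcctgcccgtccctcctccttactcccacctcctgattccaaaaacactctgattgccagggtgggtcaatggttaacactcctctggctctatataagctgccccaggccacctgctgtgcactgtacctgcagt
Slc44a4: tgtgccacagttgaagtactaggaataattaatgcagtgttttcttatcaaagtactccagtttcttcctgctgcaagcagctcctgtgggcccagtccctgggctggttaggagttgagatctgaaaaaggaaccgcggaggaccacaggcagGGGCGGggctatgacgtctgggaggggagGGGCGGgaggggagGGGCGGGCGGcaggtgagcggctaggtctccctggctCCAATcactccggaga
Slc37a1: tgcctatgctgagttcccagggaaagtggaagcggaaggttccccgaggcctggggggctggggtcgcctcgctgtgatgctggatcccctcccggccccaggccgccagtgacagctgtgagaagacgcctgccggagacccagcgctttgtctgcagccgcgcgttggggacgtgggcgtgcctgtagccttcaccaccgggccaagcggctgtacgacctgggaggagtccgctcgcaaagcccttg
Slc18a3: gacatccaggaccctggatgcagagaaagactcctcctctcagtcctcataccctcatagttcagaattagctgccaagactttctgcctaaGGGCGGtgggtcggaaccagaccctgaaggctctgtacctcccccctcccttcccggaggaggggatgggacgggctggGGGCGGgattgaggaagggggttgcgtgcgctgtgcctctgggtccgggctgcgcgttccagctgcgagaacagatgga
Slc25a4: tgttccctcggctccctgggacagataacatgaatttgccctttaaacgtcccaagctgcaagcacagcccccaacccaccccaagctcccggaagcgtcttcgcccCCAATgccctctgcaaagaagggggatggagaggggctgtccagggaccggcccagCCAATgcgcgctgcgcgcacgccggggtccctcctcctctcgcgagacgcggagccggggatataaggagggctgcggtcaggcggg

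The Slc44a4 stretch held 4 GC boxes, 2 of them overlapping, with starts at -96, -67, -53 and -49 from the gene start, and a CCAAT box at -16. Slc18a3 held GC boxes at -158 and -79, Slc25a4 held CCAAT boxes at -143 and -87, and those of Slc13a2 and Slc37a1 held none of the motifs searched. The search covered both strands. Its other motifs were the TATA box (TATAAA) and the letters GTTAAT, found in sites of hepatocyte nuclear factors, with TTTATG as known from sites of caudal factors. Of 83 carrier genes, 68 had a promoter in the RefSeq table. GGGCGG was found in 14 of 24 carriers that were lower with WPH (58.3%), in 4 of 6 that were higher and in 15 of 38 that were not called (39.5%), against 32.4% of 27457 promoters. CCAAT was found in 25% of the lower carriers and 34.3% of all promoters, and TATAAA in 8.33% and 13.1%. GTTAAT and TTTATG were each in 1 of the 24 lower carriers, against 6.46% and 11.2% of all promoters. These are descriptions of letters in a window and say nothing of a factor's binding.

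Of 16 inorganic ion carriers, 6 were lower (37.5%) and 3 higher (18.8%) with WPH, against 17.9% and 20.9% of all probe sets. The epithelial marker sum was 3.34-fold lower with WPH, and its part in these and the other decreases was not tested. Slc9a2 (L11236cds_s_at), a sodium-proton exchanger of the luminal membrane, had signals of 174, 224 and 191 on CAS arrays, 48.3, 61.7 and 21.6 on SPI arrays and 25.3, 7.9 and 18.7 on WPH arrays. Every CAS array was above 100 and every other array below it. Slc9a2 met the minimum signal through CAS alone, so its differences are descriptions, also in the counts of lower carriers. Slc9a2 fell with WPH by at least 1.96-fold (log2 change -3.65 ± 0.57 SE, adjusted p = 0.000371) and with SPI by at least 1.96-fold (adjusted p = 0.0144). The SPI call was lost without CAS replicate 2, CAS replicate 3 or SPI replicate 3 (adjusted p = 0.0661, 0.0603 and 0.0502) and with the wash round (adjusted p = 0.0532). Slc4a2 (J05166_g_at), an exchanger of chloride for bicarbonate, read 1763, 1614 and 1912 with CAS, 1123, 1273 and 1098 with SPI and 607, 735 and 692 with WPH. Its 3 diets did not overlap. It was 2.60-fold lower with WPH (log2 change -1.38 ± 0.11 SE, adjusted p = 2.75e-06), and its second probe set also fell, 2.11-fold with WPH. With SPI, Slc4a2 was 1.51-fold lower (adjusted p = 0.00282, or 0.4 with the wash round). SPI exceeded WPH 1.72-fold (adjusted p = 0.00058).

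Slc4a4 (AF004017_at), the electrogenic sodium bicarbonate cotransporter, gave 182, 250 and 144 with CAS, 148, 100 and 111 with SPI and 78.6, 37.5 and 16.5 with WPH. CAS and SPI arrays overlapped, and all WPH arrays were lower. It fell at least 1.92-fold with WPH (log2 change -2.36 ± 0.48 SE, adjusted p = 0.00238). With the wash round of the arrays in the fit, that adjusted p was 0.0518 at a log2 change of -2.32. Its difference between SPI and WPH (log2 1.69, adjusted p = 0.0305) was lost without SPI replicate 1 or 3 or WPH replicate 2 or 3 (adjusted p = 0.106, 0.0717, 0.0707 and 0.0692) and with the wash round (adjusted p = 0.136). Slc12a7, a potassium chloride cotransporter, was 1.72-fold below CAS with WPH (adjusted p = 0.000536).

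Slc12a2 separated SPI from WPH, and Slc13a1 gave a call that single arrays decided. Slc12a2 (AF051561_s_at), the sodium potassium chloride cotransporter that loads secretory cells with chloride, read 1851, 2176 and 1541 with CAS, 1844, 1653 and 2044 with SPI and 917, 768 and 695 with WPH. CAS and SPI arrays overlapped and all WPH arrays lay below them. It was 2.34-fold lower with WPH than with CAS (log2 change -1.22 ± 0.15 SE, adjusted p = 5.47e-05) and 2.33-fold higher with SPI than with WPH (adjusted p = 0.000168). SPI against CAS gave a log2 change of 0.00 ± 0.15 SE. A second, dim Slc12a2 probe set read 77.8 to 107 on all 9 arrays and was not called. Slc13a1 (rc_AI233591_at), a sodium sulfate cotransporter, had signals of 61.4, 77.3 and 70.5 with CAS, 130, 109 and 109 with SPI and 33.2, 2.2 and 31.1 with WPH. SPI arrays alone exceeded 100. Slc13a1 met the minimum signal through SPI alone, so its difference is a description. SPI exceeded WPH by at least 1.16-fold, and the fitted log2 change of 3.14 ± 0.88 SE (adjusted p = 0.0282) was 1.85 without WPH replicate 2 and 1.21 with signals under 50 raised to 50. That call was lost without SPI replicate 1, 2 or 3 (adjusted p = 0.0872, 0.0599 and 0.0748) and with the wash round (adjusted p = 0.0545). WPH against CAS was not called (adjusted p = 0.0508), but was without WPH replicate 1, 2 or 3 (adjusted p = 0.0217, 0.0272 and 0.0263) and with the wash round (adjusted p = 0.000483).

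The 3 ion carriers called higher with WPH were Slc4a7, Slc12a4 and Slc4a3, a share near that of all probe sets. Slc4a7 (rc_AA892414_at), an electroneutral sodium bicarbonate cotransporter, read 2250, 2187 and 2196 with CAS, 3145, 2961 and 1666 with SPI and 3996, 4117 and 3813 with WPH. All WPH arrays exceeded all others, and SPI replicate 3 lay below every CAS array while the other SPI arrays lay above. It was 1.80-fold higher with WPH than with CAS (log2 change 0.85 ± 0.19 SE, adjusted p = 0.00428). SPI against CAS was not called (adjusted p = 0.581) but was without SPI replicate 3 (log2 change 0.47, adjusted p = 0.00559). The lower signal of SPI than of WPH (adjusted p = 0.0294) was lost without WPH replicate 1, 2 or 3 (adjusted p = 0.0669, 0.0878 and 0.0629) and with the wash round (adjusted p = 0.0631). The potassium chloride cotransporter Slc12a4 exceeded CAS 1.55-fold with WPH (adjusted p = 0.00575) and the anion exchanger Slc4a3 did so 1.44-fold (adjusted p = 0.0156). With the wash round in the fit both calls were lost, at adjusted p = 0.148 and 0.0504. The second Slc12a4 probe set was 1.63-fold higher (adjusted p = 0.00135) and kept its call with the wash round (adjusted p = 0.0428). The kidney phosphate carrier Slc34a1 was called lower by 1 of 3 probe sets (adjusted p = 0.037, or 0.605 with the wash round), at a log2 change of -0.87 in the full fit and -0.31 within the round that WPH replicate 2 shared with CAS. The exchangers Slc4a1, Slc8a1 and Slc8a2 and the carriers Slc12a3, Slc20a2 and Slc26a1 were not called between any diets.

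**Figure D3:**
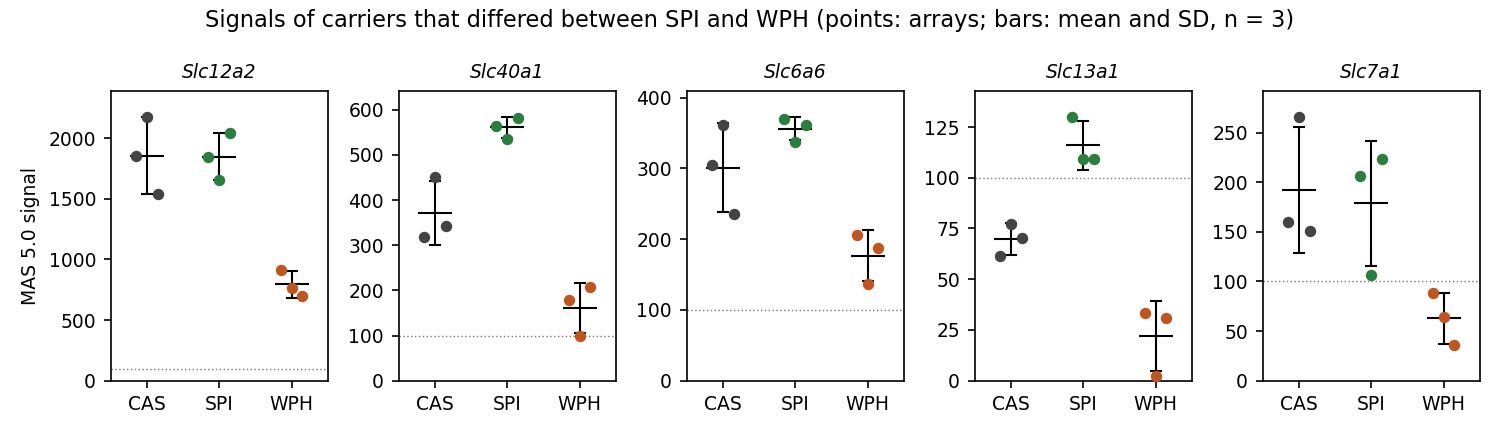
MAS 5.0 signals on a linear axis of 5 carriers that differed between SPI and WPH; points are arrays, horizontal marks and bars are mean and SD (n = 3), and the dotted line is a signal of 100. Slc12a2 lies between 1541 and 2176 on CAS and SPI arrays and between 695 and 917 on WPH arrays.

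Of 4 metal carriers, the iron exporter was the one called. That made 25% lower with WPH, against 17.9% of all probe sets, and 25% higher with SPI than with WPH, against 10.1%. Slc40a1 (U76714_g_at), ferroportin, which passes iron out of cells, read 319, 452 and 343 with CAS, 565, 536 and 582 with SPI and 178, 98.2 and 207 with WPH. The 3 diets did not overlap, with SPI highest and WPH lowest. It was 2.31-fold lower with WPH than with CAS (log2 change -1.26 ± 0.25 SE, adjusted p = 0.00171) and 3.48-fold higher with SPI than with WPH (log2 change 1.87 ± 0.25 SE, adjusted p = 0.00032). Within the shared round, WPH replicate 2 lay lower still, at a log2 change of -1.90. SPI against CAS was 1.51-fold higher but not called in this probe set (adjusted p = 0.105), and was called without WPH replicate 2 (adjusted p = 0.0188). With the wash round its sign turned, at a log2 change of -0.38 (adjusted p = 0.579). The second Slc40a1 probe set had 180, 220 and 213 with CAS, 349, 361 and 337 with SPI and 106, 107 and 132 with WPH. It also kept the 3 diets apart, and its 1.71-fold rise with SPI against CAS was called (adjusted p = 0.005, or 0.308 with the wash round). The zinc exporter Slc30a4 (Y16774_at) read 281, 415 and 312 with CAS, 342, 246 and 398 with SPI and 300, 208 and 167 with WPH, with overlap between all diets. It was not called between WPH and CAS (adjusted p = 0.076) or SPI and WPH (adjusted p = 0.143). Both became calls without WPH replicate 1 (adjusted p = 0.0197 and 0.0455). The magnesium carriers Slc41a2 and Slc41a3 were not called.

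Of 9 carriers of carboxylates, bile acids and fatty acids, 3 were lower with WPH (33.3%, against 17.9% of all probe sets) and 2 with SPI (22.2%, against 10.2%). Slc16a1 (rc_AI145680_s_at), the monocarboxylate transporter that carries lactate and butyrate, read 2236, 1871 and 2011 with CAS, 894, 899 and 921 with SPI and 660, 742 and 660 with WPH. The diets did not overlap. It was 2.97-fold below CAS with WPH (log2 change -1.57 ± 0.10 SE, adjusted p = 5.07e-07) and 2.25-fold lower with SPI (log2 change -1.17 ± 0.10 SE, adjusted p = 1.28e-05, or 0.0257 with the wash round). A second probe set was below CAS by 2.35-fold with WPH and by 1.77-fold with SPI (adjusted p = 0.01, or 0.0687 with the wash round). The difference of SPI from WPH (log2 0.40, adjusted p = 0.0171) was lost without SPI replicate 3, WPH replicate 1 or WPH replicate 3 (adjusted p = 0.0542, 0.0511 and 0.0548) and with the wash round (adjusted p = 0.0651). Emb (embigin), a chaperone of monocarboxylate transporters, averaged 2240 on CAS, 437 on SPI and 341 on WPH arrays, and WPH differed from CAS by log2 -2.72 (adjusted p = 2.62e-08). Bsg (basigin), the other such chaperone measured, was not called (adjusted p = 0.305).

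Slc13a2 (AF058714_at), a sodium-coupled carrier of succinate and citrate, read 992, 804 and 1080 with CAS, 476, 542 and 480 with SPI and 336, 302 and 78 with WPH. No array of one diet reached the range of another, and WPH replicate 3 lay far under the other WPH arrays. It was 4.01-fold lower with WPH (log2 change -2.25 ± 0.43 SE, adjusted p = 0.00144), or log2 -1.65 with an adjusted p of 0.0825 with the wash round. SPI against CAS was not called (adjusted p = 0.154), but was without WPH replicate 3 (log2 -0.93, adjusted p = 0.000857). SPI against WPH (adjusted p = 0.052) was called without WPH replicate 1, 2 or 3 (adjusted p = 0.0204, 0.0425 and 0.0162).

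Slc16a8 (AF059258_at), a lactate carrier known from retinal pigment epithelium, was low with SPI. It read 120, 148 and 115 with CAS, 37.4, 47.2 and 43.9 with SPI and 106, 103 and 92.4 with WPH, so that every SPI array was below every other array. It fell at least 1.28-fold with SPI against CAS (log2 change -1.57 ± 0.27 SE, adjusted p = 0.00165) and was lower than with WPH (log2 change -1.23 ± 0.27 SE, adjusted p = 0.00805). With the wash round the adjusted p of each was 0.152 and 0.058. The lactate exporter Slc16a3 was 1.68-fold below CAS with WPH (adjusted p = 0.0114). Slc27a1 (U89529_at), a fatty acid transport protein, read 933, 856 and 932 with CAS, 627, 840 and 694 with SPI and 767, 995 and 829 with WPH. SPI arrays lay below CAS arrays and WPH arrays overlapped both. No comparison was called, but SPI against CAS (adjusted p = 0.0995) was without SPI replicate 2 (adjusted p = 0.0341). The ileal bile acid carrier Slc10a2, the monocarboxylate carriers Slc16a6 and Slc16a7 and Slc27a2 were not called.

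Of 4 carriers of internal membranes, 3 fell with both diets (75%, against 17.9% of all probe sets with WPH and 10.2% with SPI). Slc37a1 (rc_AA799487_at), a sugar phosphate carrier of the endoplasmic reticulum, read 1006, 1104 and 1029 with CAS, 522, 564 and 565 with SPI and 306, 264 and 280 with WPH. The 3 diets stood far apart relative to their spread. It was 3.69-fold lower with WPH (log2 change -1.88 ± 0.11 SE, adjusted p = 2.25e-07) and 1.90-fold lower with SPI (log2 change -0.93 ± 0.11 SE, adjusted p = 0.000125, or 0.0256 with the wash round). SPI was 1.94-fold above WPH (adjusted p = 0.000106).

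Slc37a4 (AF080468_g_at), which passes glucose 6-phosphate into the endoplasmic reticulum, read 1037, 637 and 914 with CAS, 471, 590 and 463 with SPI and 322, 336 and 332 with WPH. Each diet kept its own range, and CAS replicate 2 came near the highest SPI array. WPH was 2.62-fold below CAS (adjusted p = 8.8e-05) and SPI 1.70-fold below it (adjusted p = 0.0103, or 0.38 with the wash round). SPI against WPH (adjusted p = 0.0291) was lost without SPI replicate 1 or 2 or WPH replicate 1, 2 or 3 (adjusted p = 0.0544, 0.0892, 0.0702, 0.0696 and 0.0685) and with the wash round (adjusted p = 0.1).

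Slc35a1 (rc_AA891848_at), which carries CMP-sialic acid into the Golgi apparatus, read 854, 735 and 860 with CAS, 479, 452 and 543 with SPI and 305, 501 and 376 with WPH. CAS arrays were above all others, and WPH replicate 2 lay among the SPI arrays. SPI lay 1.66-fold below CAS (adjusted p = 0.010, or 0.677 with the wash round). Slc35a1 was 2.07-fold lower with WPH (log2 change -1.08 ± 0.17 SE, adjusted p = 0.000415). Within the round that WPH replicate 2 shared with CAS the log2 change was -0.70. SPI against WPH was not called (adjusted p = 0.196) but was without WPH replicate 2 (adjusted p = 0.0404). Slc35b1 (D87991_g_at), another nucleotide carrier of this class, read 1202, 1112 and 1180 with CAS, 979, 1175 and 1126 with SPI and 994, 974 and 1287 with WPH, with overlapping diets, and was not called.

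Of 11 vitamin, choline, nucleoside and urea carriers, 3 fell (27.3%) and 1 rose (9.09%) with WPH, against 17.9% and 20.9% of all probe sets, and Slc44a4 had the largest log2 change among them. Slc44a4 (rc_AI639535_at), a choline transporter-like protein that also carries thiamine pyrophosphate in colon, read 5127, 4332 and 5398 with CAS, 2027, 3110 and 2313 with SPI and 1097, 1254 and 1090 with WPH. Array ranges of the diets were separate. It was 4.32-fold lower with WPH (log2 change -2.11 ± 0.15 SE, adjusted p = 1.01e-06), and SPI was 2.16-fold above WPH (adjusted p = 0.000411). With SPI it lay 1.99-fold below CAS (log2 change -1.01 ± 0.15 SE, adjusted p = 0.000639, or 0.195 with the wash round). Slc5a6 (AF026554_at), the sodium-dependent multivitamin transporter of biotin and pantothenate, read 1537, 1248 and 1230 with CAS, 791, 989 and 878 with SPI and 797, 824 and 835 with WPH. CAS arrays were the highest and SPI and WPH overlapped. WPH was 1.64-fold below CAS (adjusted p = 0.000685) and SPI 1.51-fold below it (adjusted p = 0.00433, or 0.254 with the wash round). A second Slc5a6 probe set was not called with WPH (adjusted p = 0.0603, or 0.017 with the wash round) or SPI (adjusted p = 0.611).

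Slc52a3 (rc_AA891844_at), a riboflavin transporter, read 127, 115 and 108 with CAS, 63.3, 56.2 and 44.9 with SPI and 21.2, 48.9 and 29.5 with WPH. Only CAS arrays exceeded 100. Slc52a3 met the minimum signal through CAS alone, so its differences are descriptions, also in the class count. It fell at least 1.16-fold with WPH (log2 change -1.89 ± 0.41 SE, adjusted p = 0.00331), or log2 -1.25 with an adjusted p of 0.113 with the wash round. SPI against CAS (adjusted p = 0.0814) was called without WPH replicate 1 (adjusted p = 0.0491), and its log2 change was -1.10 without and 0.01 with the wash round. Slc29a1, an equilibrative nucleoside transporter, rose with WPH by 1.93-fold (adjusted p = 2.9e-05) and with SPI by 1.29-fold (adjusted p = 0.0261, or 0.37 with the wash round). Slc28a2, a sodium-coupled nucleoside carrier, was 1.59-fold higher with SPI than with WPH (adjusted p = 0.0178, or 0.168 with the wash round). The urea carriers Slc14a1 and Slc14a2, and Slc23a3, Slc28a1 and Slc29a2, were not called. The folate carrier Slc19a1 was called higher with SPI than with WPH in its dimmer probe set alone (adjusted p = 0.0161, or 0.134 with the wash round).

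**Figure D4:**
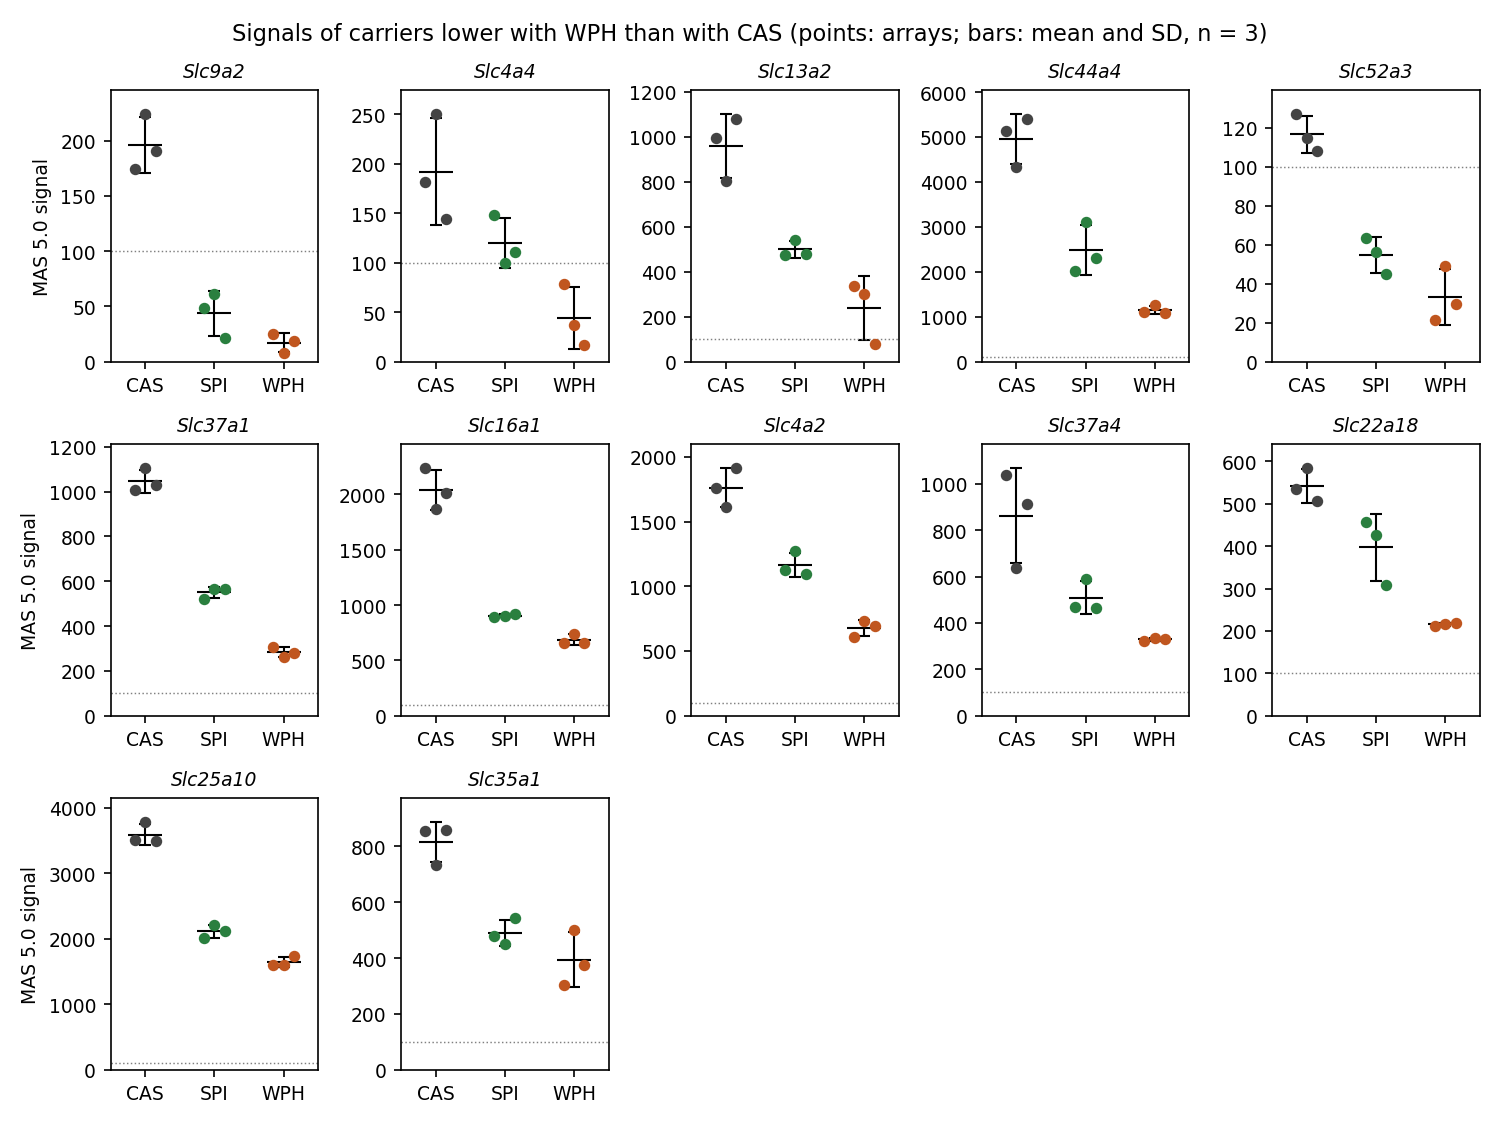
MAS 5.0 signals on linear axes of 12 carriers lower with WPH than with CAS by a ratio of means of at least 2 (Slc12a2, Slc40a1 and Slc7a1 are plotted with the SPI and WPH differences); points are arrays, horizontal marks and bars are mean and SD (n = 3), and the dotted line is a signal of 100. SPI means lie between those of CAS and WPH in each panel, as for Slc44a4 at 2484 between 4952 and 1147.

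Of 12 carriers of the Slc25 family, which formed the mitochondrial class, 3 were lower (25%) and 2 higher (16.7%) with WPH. The shares of all probe sets were 17.9% and 20.9%. Slc25a10 (AJ223355_g_at), the mitochondrial dicarboxylate carrier, read 3501, 3778 and 3485 with CAS, 2014, 2209 and 2124 with SPI and 1604, 1595 and 1730 with WPH. The ranges of the 3 diets stayed apart. It was 2.18-fold lower with WPH (log2 change -1.13 ± 0.08 SE, adjusted p = 1.31e-06) and 1.70-fold lower with SPI (adjusted p = 7.41e-05, or 0.034 with the wash round). Its other probe sets were 3.55-fold and 2.67-fold lower with WPH. The muscle and heart form of the ADP/ATP carrier, Slc25a4, read 2360, 2109 and 2360 with CAS, 2916, 3272 and 3216 with SPI and 4240, 4667 and 4640 with WPH. It rose 1.98-fold with WPH (log2 change 0.99 ± 0.09 SE, adjusted p = 4.78e-06) and did not overlap between diets. With SPI it rose 1.38-fold (adjusted p = 0.00294, or 0.155 with the wash round). Slc25a5 (D12771_s_at), the ADP/ATP carrier form typical of proliferating cells, read 7865, 7797 and 8277 with CAS, 6879, 6876 and 7399 with SPI and 6334, 6279 and 5867 with WPH. It fell 1.30-fold with WPH (log2 change -0.37 ± 0.07 SE, adjusted p = 0.00157). The oxoglutarate carrier Slc25a11 was lower with WPH and with SPI (1.29-fold and 1.41-fold), the carnitine carrier Slc25a20 was 1.36-fold lower with SPI, and Slc25a23, an ATP-magnesium phosphate carrier, was 1.75-fold higher with WPH. The wash round ended the calls of Slc25a11 and Slc25a23 between WPH and CAS (adjusted p = 0.391 and 0.115). It also ended those of Slc25a11 and Slc25a20 between SPI and CAS (adjusted p = 0.595 and 0.223). A second Slc25a11 probe set was called with neither diet against CAS (adjusted p = 0.0556 with WPH and 0.38 with SPI). The phosphate carrier Slc25a3 was not called (log2 change 0.14 with WPH, adjusted p = 0.284), nor were Slc25a1, Slc25a14, Slc25a17, Slc25a26 and Slc25a30.

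Of 4 organic ion carriers, 2 were lower with WPH (50%, against 17.9% of all probe sets) and 1 with SPI (25%, against 10.2%). Past a 2-fold ratio there was 1 gene. Slc22a18 (rc_AA892545_at), an organic cation carrier-like gene of an imprinted region, read 535, 584 and 506 with CAS, 456, 427 and 308 with SPI and 211, 217 and 218 with WPH. WPH arrays were the lowest and lay close together, and SPI arrays were all below CAS. It was 2.52-fold lower with WPH (log2 change -1.33 ± 0.16 SE, adjusted p = 4.26e-05) and 1.84-fold higher with SPI than with WPH (adjusted p = 0.0026). SPI against CAS (adjusted p = 0.0524) was called without SPI replicate 1 (adjusted p = 0.0425). The extraneuronal monoamine carrier Slc22a3 was below CAS by 1.76-fold with WPH and by 1.55-fold with SPI. Its SPI call (adjusted p = 0.0475) was lost with the wash round (adjusted p = 0.227). Slc22a7 (L27651_at), an organic anion carrier, read 405, 429 and 345 with CAS, 426, 370 and 346 with SPI and 396, 405 and 468 with WPH, with all diets overlapping, and was not called, nor was Slc22a13.

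Of 11 carriers of amino acids and peptides, 2 were lower (18.2%) and 1 higher (9.09%) with WPH, against 17.9% and 20.9% of all probe sets. Slc7a1 (U70476_at), a carrier of cationic amino acids such as arginine, read 160, 266 and 151 with CAS, 206, 107 and 224 with SPI and 88, 64 and 36.3 with WPH. CAS and SPI overlapped and all WPH arrays were under 100. It fell at least 1.92-fold with WPH (log2 change -1.66 ± 0.39 SE, adjusted p = 0.00531), or log2 -1.54 with an adjusted p of 0.0833 with the wash round. SPI exceeded WPH at least 1.79-fold (adjusted p = 0.0173), a call lost without SPI replicate 1, SPI replicate 3 or WPH replicate 3 (adjusted p = 0.0677, 0.0723 and 0.0558) and with the wash round (adjusted p = 0.120). The second Slc7a1 probe set gave the opposite sign with WPH (log2 1.07, adjusted p = 0.0591), so the direction for this gene is uncertain.

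The neutral amino acid carrier Slc6a15 was at least 1.46-fold above CAS with WPH (adjusted p = 0.0436) and the imino acid carrier Slc6a20a 1.78-fold lower (adjusted p = 0.017). The Slc6a15 call was lost with the wash round (adjusted p = 0.538), at a log2 change of 0.41 in place of 0.86. Slc3a2 (AB015433_s_at), the heavy chain that several amino acid carriers need at the cell surface, read 849, 729 and 718 with CAS, 881, 861 and 949 with SPI and 917, 1059 and 611 with WPH. CAS arrays overlapped those of WPH, whose replicate 3 was the lowest array of all. It was not called between WPH and CAS (adjusted p = 0.57), but was without WPH replicate 3 (log2 change 0.37, adjusted p = 0.0415). Its light chain partner Slc7a5 was not called (log2 change -0.23 with SPI), nor were Slc1a1, Slc1a2, Slc1a3, Slc3a1, Slc7a3 and Slc15a4.

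Among 9 carriers of transmitters, taurine and creatine, that of acetylcholine rose with WPH and those of taurine and creatine fell. This made 11.1% higher and 22.2% lower, against 20.9% and 17.9% of all probe sets. Slc18a3 (U09211_at), which fills synaptic vesicles with acetylcholine, read 474, 496 and 430 with CAS, 575, 759 and 580 with SPI and 916, 918 and 1116 with WPH. Ranges of the diets did not meet. It was 2.11-fold higher with WPH (log2 change 1.07 ± 0.14 SE, adjusted p = 9.44e-05), and its second probe set was 1.44-fold higher (adjusted p = 0.0128, or 0.162 with the wash round). The neuronal marker sum was 2.22 times its CAS mean with WPH, and its part in this rise was not tested. With SPI it was 1.37-fold higher (adjusted p = 0.0424), a call lost without CAS replicate 1, 2 or 3 (adjusted p = 0.0929, 0.0559 and 0.138), SPI replicate 1, 2 or 3 (0.0523, 0.126 and 0.0534) or WPH replicate 2 (0.0561). The wash round also ended that call (adjusted p = 0.541). The second Slc18a3 probe set was not called between SPI and CAS (log2 change 0.08, adjusted p = 0.757).

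Slc6a6 (M96601_at), the taurine carrier, read 305, 362 and 236 with CAS, 370, 338 and 361 with SPI and 206, 137 and 187 with WPH. CAS and SPI overlapped, and all WPH arrays were lower. It was 1.71-fold lower with WPH than with CAS (log2 change -0.77 ± 0.19 SE, adjusted p = 0.00837) and 2.02-fold higher with SPI than with WPH (log2 change 1.03 ± 0.19 SE, adjusted p = 0.00351). The creatine carrier Slc6a8 (X66494_at) read 1787, 1585 and 1858 with CAS, 1037, 1261 and 1272 with SPI and 1017, 1206 and 1074 with WPH. CAS was the highest diet and SPI and WPH overlapped. WPH was 1.59-fold below CAS (adjusted p = 0.000782) and SPI 1.47-fold below it (adjusted p = 0.00539, or 0.371 with the wash round). The serotonin carrier Slc6a4 was not called (log2 change -0.55 with WPH, adjusted p = 0.0767), nor were Slc6a2, Slc6a3, Slc6a5, Slc6a9 and Slc6a11, carriers of noradrenaline, dopamine, glycine and GABA.

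The sugar class had 3 genes, since Slc2a1, Slc2a2, Slc2a5 and Slc5a1 were set aside. Of these, 1 was higher with WPH (33.3%, against 20.9% of all probe sets) and with SPI (33.3%, against 12%). Slc2a4 (D28561_s_at), the insulin-responsive glucose carrier of fat and muscle, read 1006, 956 and 1096 with CAS, 1490, 1140 and 1632 with SPI and 1852, 2070 and 1771 with WPH. There was no overlap between diets. It rose 1.86-fold with WPH (log2 change 0.90 ± 0.13 SE, adjusted p = 0.000263), and its second probe set rose 2.11-fold (adjusted p = 3.21e-05). Marker sums of smooth muscle and fat cells were 2.04 and 2.20 times their CAS means with WPH, and their part in this rise was not tested. With SPI it was 1.39-fold higher than with CAS (adjusted p = 0.0279), a call lost without CAS replicate 1 or 2 or SPI replicate 1 or 3 (adjusted p = 0.080, 0.0822, 0.0952 and 0.110). That call was also lost with the wash round (adjusted p = 0.239). SPI against WPH (adjusted p = 0.0425) was lost without 7 of the 9 arrays, namely all WPH arrays, SPI replicates 1 and 2 and CAS replicates 1 and 3 (adjusted p from 0.055 to 0.141), and with the wash round (adjusted p = 0.0851). The second probe set was also lower with SPI than with WPH (log2 change -0.79, adjusted p = 0.000869), and that call was kept with the wash round (adjusted p = 0.0228). Between SPI and CAS the second probe set was not called (log2 change 0.28, adjusted p = 0.122). The neuronal glucose carrier Slc2a3 and the inositol carrier Slc5a3 were not called.

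**Figure D5:**
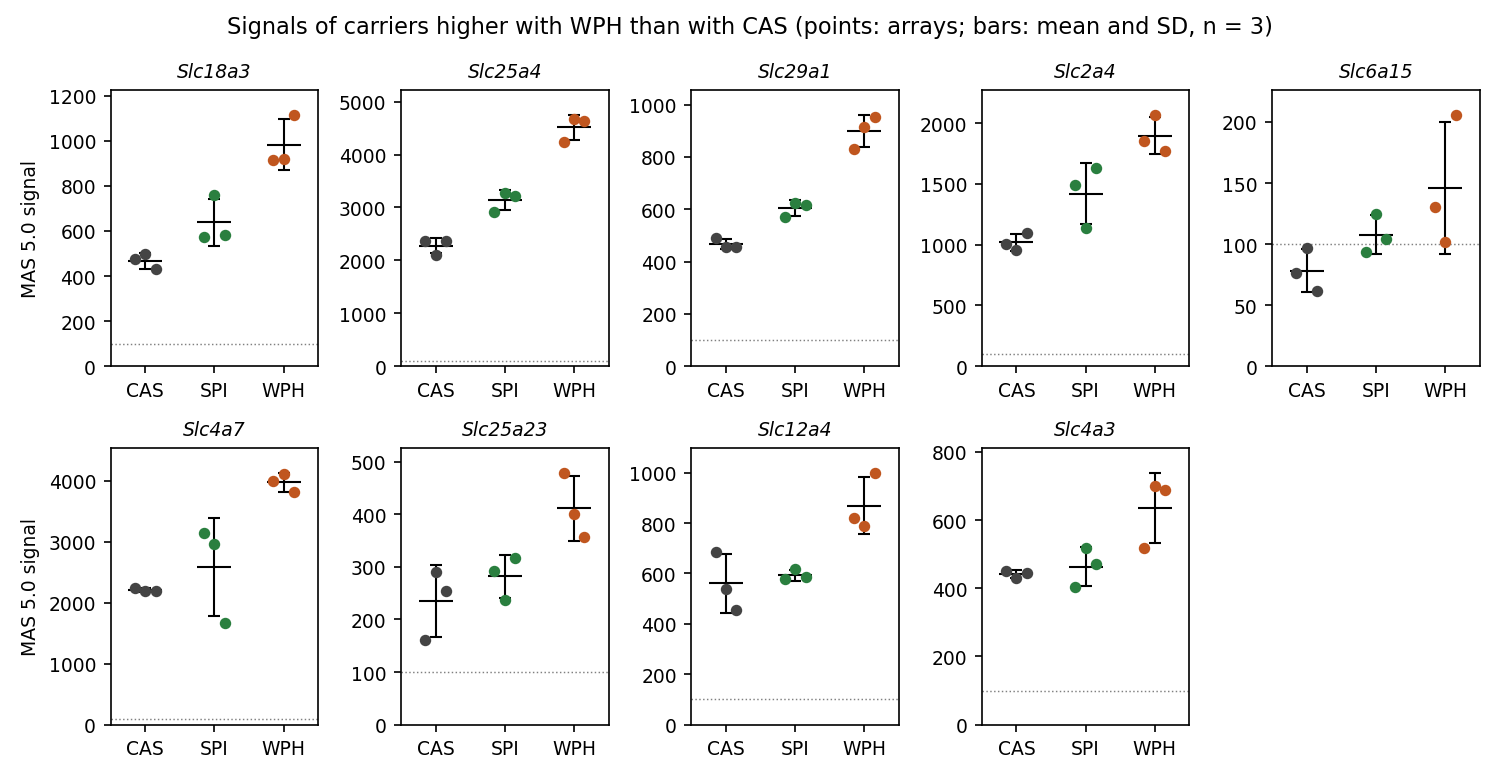
MAS 5.0 signals on linear axes of the 9 carriers called higher with WPH than with CAS; points are arrays, horizontal marks and bars are mean and SD (n = 3), and the dotted line is a signal of 100. The panels run from the largest log2 change, 1.07 for Slc18a3, to the smallest, 0.51 for Slc4a3.

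SPI against CAS asks the same of soy protein and gave fewer calls. Of 107 probe sets, 19 were lower (17.8%), against 10.2% of all probe sets compared, and 5 were higher (4.67%), against 12%. The median log2 change was -0.08 for the carriers and -0.01 for all. The lower genes included the carriers Slc16a1, Slc4a2, Slc9a2, Slc25a10, Slc35a1, Slc37a1, Slc37a4, Slc44a4, Slc5a6, Slc6a8, Slc22a3 and Slc25a11, each of which was also lower with WPH. Second probe sets of Slc5a6 and Slc25a11 were called with neither diet against CAS. Slc16a8 and Slc25a20 were called between SPI and CAS and not between WPH and CAS. Tested directly, SPI and WPH differed in Slc16a8 (adjusted p = 0.00805) and were not called different in Slc25a20 (adjusted p = 0.722). The higher genes were Slc18a3, Slc25a4, Slc2a4 and Slc29a1, with a second probe set of Slc40a1. Second probe sets of Slc18a3 and Slc2a4 were not called between SPI and CAS. The comparisons of WPH and SPI with CAS share the CAS arrays, so that these calls are not independent. The count of higher probe sets fell to 2 without CAS replicate 2, and to 3 without CAS replicate 1, CAS replicate 3, SPI replicate 1 or SPI replicate 3.

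SPI against WPH sets the 2 test proteins side by side, and it is drawn from arrays that also enter the other comparisons. Of 107 probe sets, 22 were higher with SPI (20.6%), against 10.1% of all probe sets compared, and 9 were lower (8.41%), against 9.83%. The median log2 difference was 0.10 for the carriers and -0.08 for all. Ion carriers held 6 of the 17 genes higher with SPI, which is 37.5% of the 16 ion carriers, against 10.1% of all probe sets. With the wash round 3 of these 6 calls remained. The 6 include Slc13a1, which met the minimum signal through SPI alone, and Slc34a1, called in 1 of 3 probe sets. Slc40a1, Slc12a2, Slc6a6 and Slc44a4 differed by more than 2-fold with every array of SPI above every array of WPH. The count of higher probe sets fell to 12 without SPI replicate 1 and to 10 without SPI replicate 3, and the count of lower ones to 5 without WPH replicate 3.

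With the round in the fit, 32 of 43 calls between WPH and CAS remained, and all 43 had the same sign. That fit sets WPH replicate 2 against the CAS arrays of the first round, so its change is the one within that round. WPH replicate 2 is also among the arrays behind each call, so the shared signs are not an independent check. For SPI against WPH, 12 of 31 calls remained, and all 31 had the same sign. Here the fit gives the change within the second round, whose arrays also enter each call. For SPI against CAS, 5 of 24 calls remained, namely those of Slc37a1, 1 probe set of Slc16a1 and 3 of Slc25a10, and all 24 had the same sign. The share of calls kept among all probe sets was not counted, so these counts describe the carriers alone.

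In 20 genes with more than 1 member probe set, signs were compared after rounding log2 changes to 2 decimals. No opposite signs were found in 14 for WPH against CAS, 15 for SPI against CAS and 14 for SPI against WPH. The 14 for WPH against CAS include Slc12a2, at -1.22 and 0.00. No gene was called both ways.

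Other transport genes were counted from a fixed list. Of all probe sets compared, 20.9% were higher and 17.9% lower with WPH. The groups of this list are small, so their counts are descriptions. Of 6 sodium pump genes compared, Atp1b3 and Fxyd1 were higher and Atp1b1 and Fxyd4 lower with WPH. The beta subunit Atp1b1 had mean signals of 12369, 8526 and 6160 with CAS, SPI and WPH. Of 8 ABC transporters, Abcb4 and Abcc1 were higher and Abcc3 and Abcd3 lower with WPH. Abcb4 met the minimum signal through WPH alone. Abcc3, an exporter of conjugated bile acids and drugs, fell from a mean of 1131 with CAS to 531 with SPI and 291 with WPH (adjusted p = 2.51e-07 with WPH). Of 2 organic anion polypeptides, the prostaglandin carrier Slco2a1 was lower with both diets (log2 change -1.33 with WPH, adjusted p = 6.36e-05) and Slco1a4 was not called.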

How the data were processed

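The authors hybridized 3 cRNA targets from 1 RNA pool of 7 rats per diet to Affymetrix RG_U34A arrays, computed signals in MAS 5.0 and scaled each array to a target of 500. The deposited values are these linear signals. The deposited instrument settings, which hold no signals, served solely to place arrays in the inferred wash rounds.

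Signals under 0.1 were set to 0.1 and changed to log2. Without 59 controls, 8740 of 8799 probe sets remained, and the 5606 with a diet mean of 100 or more in any diet were compared. All diets entered a single model in limma 3.58.1 (R 4.3.3) with a variance trend and no covariate, with Benjamini-Hochberg adjustment over all 5606 probe sets. Every adjusted p is that of limma's moderated test, two-sided, and a call needs an adjusted p under 0.05. The spread is that of 3 arrays per diet, and 58.6 to 60.2% of signals on an array reached 100.

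Each gene was described by its brightest member probe set. Genes given array by array were those with a call and a ratio of means of at least 2 in at least 1 comparison, and the brightest other gene of each substrate class; other genes are given by counts or shorter values, and some of these were added after their values were seen. Substrate classes, markers and transport lists were written by hand, and members and lists were chosen with earlier results of these data known. Motifs were searched in a RefSeq promoter table of build GRCr8. The fit was tested on simulated data. Alternatives were a higher floor (50), log2 of signal plus 32, a filter at 200 and none, median centring, quantile normalization, a fit without the variance trend, fits of the compared diets alone, the replicate number or the wash round as a block, the methods' t-test (on the deposited signals), 1 probe set per gene and leaving out each array.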

Additional observations from a re-analysis of the deposited data

How the results depend on the processing

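Counts are of carrier probe sets called by limma. Leaving out each array in turn gave 11 to 13 higher and 29 to 33 lower for WPH against CAS (12 and 31 with all arrays), 2 to 5 higher and 15 to 22 lower for SPI against CAS (5 and 19), and 10 to 20 higher and 5 to 10 lower for SPI against WPH (22 and 9). With the wash round as a block, the counts were 7 higher for WPH against CAS, 0 higher and 5 lower for SPI against CAS, and 9 higher and 3 lower for SPI against WPH. Beside that 0, the methods' t-test gave 8 higher before adjustment and 1 after it. After Benjamini-Hochberg adjustment that test gave 5 higher and 18 lower for WPH against CAS, 4 lower for SPI against CAS, and 2 higher and 1 lower for SPI against WPH. Without a variance trend, 5 were lower for SPI against WPH.

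With the replicate number as a block, 2 were higher and 17 lower for SPI against CAS, 11 higher and 29 lower for WPH against CAS, and 18 higher and 6 lower for SPI against WPH. Deviations of same-numbered arrays correlated between -0.275 and 0.237. Arrays of different numbers were not compared in this way, so the range cannot decide whether the replicate numbers pair the arrays. Among genes given array by array, no direction that was called reversed under the alternatives run, but uncalled ones did. With the wash round, the log2 change of SPI against CAS went from 0.74 to -3.09 for Slc13a1 and 0.61 to -0.38 for Slc40a1. It went from 0.26 to -0.26 for Slc6a6 and -1.10 to 0.01 for Slc52a3. That of WPH against CAS went from -0.08 to 0.14 for Slc27a1, and that of SPI against WPH from 0.02 to -0.08 for Slc35b1. For Slc12a2, at 0.00 for SPI against CAS, the log2 change was -0.13 with the wash round and -0.01 in the methods' t-test. Leaving out 1 array in turn gave values on both sides of 0, or at 0, for SPI against CAS in Slc12a2 (-0.12 to 0.12), Slc22a7 (-0.14 to 0.02), Slc30a4 (-0.19 to 0.15) and Slc7a1 (-0.32 to 0.21), for WPH against CAS in Slc27a1 (-0.18 to 0.00) and Slc3a2 (-0.03 to 0.37), and for SPI against WPH in Slc3a2 (-0.14 to 0.26) and Slc35b1 (-0.05 to 0.15). The cause of the lower counts was not tested, beyond the fewer arrays that a left-out array leaves. Signals near 100 limit what can be read of dim carriers such as Slc13a1, Slc16a8 and Slc52a3.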
